A study of Mus musculus with 8 samples.

Results

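miR-21 was measured in mouse liver by 2 probes of a microRNA (miRNA) array that carried 1135 miRNA probes. The probes were taken by their names: mmu-miR-21, which reads the 5′ arm of the precursor, and mmu-miR-21*, which reads the 3′ arm. In mice given metformin, the normalized signal of the miR-21 probe, averaged on the log2 scale, was 1.63-fold lower than in untreated mice. Of the treated livers, 3 of 4 lay below all 4 untreated livers. The difference in miR-21 did not pass the adjusted threshold over all probes tested. The miR-21* probe was close to the background and its signal was about equal in both groups.

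The series compared 4 livers from mice fed a methionine- and choline-deficient diet (MCD) with 4 livers from MCD-fed mice that drank metformin, a biguanide drug used in type 2 diabetes, at 2.4 mg/day (MCD + metformin). Per the study's methods the animals were male C57BL/6N mice, 8 weeks old when bought, and both groups were fed MCD for 15 weeks. The MCD diet produces a fatty, inflamed and fibrosing liver and is used as a model of non-alcoholic steatohepatitis, so both groups carried the diet and no array of a normal diet was analysed here. The labels and methods do not say which animals of each group were arrayed.

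miRNAs are cut from a hairpin precursor first in the nucleus by Drosha and then in the cytoplasm by Dicer. In most cases one arm of the resulting duplex is loaded into an Argonaute protein and guides it to messenger RNAs, mainly through the seed, a short stretch near the 5′ end, whereas the other arm, written with a star in the older names, is mostly degraded. miR-21 is made in many cell types, including hepatocytes, stellate cells, biliary cells and leukocytes. It is known for rising in injured and fibrosing tissue.

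The hairpin of Mir21a is shown because both probes read its arms, which are in capitals. It spans chr11:86584067-86584158 on the minus strand of GRCm38.p6 (RefSeq), within the span of the protein-coding gene Vmp1. Both probes matched a RefSeq entry, and the 5′ arm occupied bases 18 to 39 and the 3′ arm bases 56 to 77 of the 92-base hairpin.
Mir21a hairpin: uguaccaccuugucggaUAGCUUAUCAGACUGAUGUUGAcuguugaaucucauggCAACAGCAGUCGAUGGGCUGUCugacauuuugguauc

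The mature sequences are shown with the seed (bases 2 to 8) in capitals, since the seed sets which messenger RNAs an arm can pair with. The arms of the one hairpin carry unlike seeds. miR-21b and miR-21c, encoded on chromosomes 3 and 8, are printed because they resemble the 5′ arm.
mmu-miR-21a-5p: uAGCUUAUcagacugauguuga
mmu-miR-21a-3p: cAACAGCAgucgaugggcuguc
mmu-miR-21b: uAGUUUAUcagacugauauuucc
mmu-miR-21c: uAGCUUAUcagacugguacaa
Counted from 1 at the 5′ end of miR-21a-5p, miR-21b differed at 4 of 22 bases and one of these, C4U, lay in the seed. miR-21c differed at 5 of 21 bases (A16G, G18A, U19C, U20A and G21A) and had the same seed. Of 1679 mature mouse names in the RefSeq table, 2 held the seed of the 5′ arm, miR-21a-5p and miR-21c, and 1 held that of the 3′ arm. The array had no probe named for miR-21b or miR-21c, and whether the miR-21 probe also binds them was not tested.

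The 8 arrays were alike in reach. Between 868 and 970 probes per MCD array and between 848 and 1018 per MCD + metformin array exceeded the blank spots' mean by 2 SD, which is called detected here, and 208 to 255 and 198 to 284 did the same against the negative control spots. The local background was 156 to 162 on the MCD arrays and 135 to 143 on the MCD + metformin arrays, without overlap. The scan files placed all 4 MCD arrays at one row position of the scanned image and all 4 MCD + metformin arrays at another, so position and treatment cannot be told apart. All 6 probes of a hepatocyte list, led by miR-122, the most typical miRNA of hepatocytes, lay above the negative controls on all 8 arrays. The number of arrays limits the precision of every value.

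The scanner signal of miR-21, the median of the spot in arbitrary units, was 4825, 4122, 6165 and 2904 in MCD replicates 1 to 4. In MCD + metformin replicates 1 to 4 it was 3063, 2363, 2557 and 2481. MCD replicate 4 was the one untreated liver within the range of the treated livers, and MCD replicate 3 was the highest of all. The mean signal was 4504 ± 1362 in MCD and 2616 ± 308.5 in MCD + metformin (SD, n = 4 each). After subtraction of the local background, the highest array was 2.20-fold above the lowest in MCD and 1.31-fold in MCD + metformin, so the untreated livers spread more widely.

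**Figure D1:**
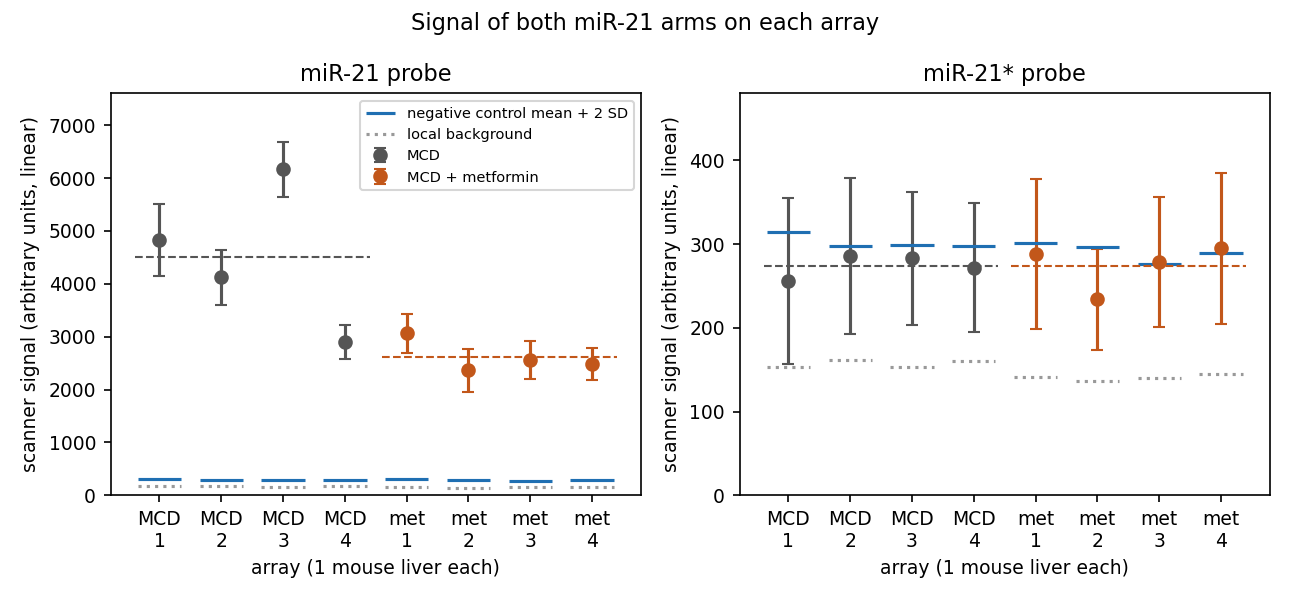
Scanner signal (arbitrary units, linear axes from 0) of the miR-21 probe (left) and the miR-21* probe (right) on each of the 8 arrays. Points are the spot medians, bars the SD over the pixels of that spot, dashed lines the group means, blue lines the mean + 2 SD of the negative control spots and dotted lines the local background. miR-21 ranged from 2363 to 6165 and stood far above the negative controls on each array, whereas miR-21* ranged from 234 to 295, near that line.

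miR-21 was read well above the background on each array. The signal was 9.73 to 20.6 times the negative control threshold in MCD and 7.95 to 10.2 times in MCD + metformin, and the local background beside the spot was 167 to 177 and 146 to 155. The SD over the pixels of the spot was 8.26 to 14.1% of its mean in MCD and 12.01 to 17.3% in MCD + metformin. No miRNA probe reached the scanner's saturation. The difference between the group means was larger than the whole local background.

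After background correction with an offset of 50, each array was centred on the median of the probes that all 8 arrays detected. On this normalized log2 scale the 4 MCD livers averaged 11.995 (SD 0.42) for miR-21 and the 4 MCD + metformin livers 11.29 (SD 0.14). Set against the MCD mean, the 4 MCD livers stood at 0.10, -0.03, 0.48 and -0.55 and the 4 MCD + metformin livers at -0.55, -0.86, -0.63 and -0.77. MCD replicate 4 and MCD + metformin replicate 1 were thus level, and the other 3 treated livers were below all MCD livers.

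The log2 fold change of miR-21, MCD + metformin against MCD, was -0.70 (SE 0.17, 95% confidence interval -1.06 to -0.34), a ratio of 0.615. limma gave an unadjusted p of 0.000826 and an adjusted p of 0.195 over the 1070 probes tested, and the exact two-sided permutation test over the 8 arrays gave p = 0.0571, where the smallest p that 4 against 4 allows is 0.0286. miR-21 was 1 of 33 probes, 3.08% of those tested, that were lower at an unadjusted p under 0.05, and 68 probes, 6.36%, were higher. No probe (0%) passed an adjusted p of 0.05 in limma, in which the smallest adjusted p was 0.195. In liver RNA, fewer cells that hold an miRNA and less of it per cell cannot be told apart.

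miR-21 had the third smallest p among the lower probes. Of all 1070 probes 4 had a lower log2 fold change, and of the 158 probes above the negative controls on all 8 arrays, called the brighter probes below, 1 did, the joint probe of miR-199a-3p and miR-199b at -0.70. The median log2 fold change was 0.03 over all probes and 0.13 over the brighter probes, of which 44 were below 0. The brighter probes thus lay on the whole slightly above 0, and miR-21 lay far below that median.

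**Figure D2:**
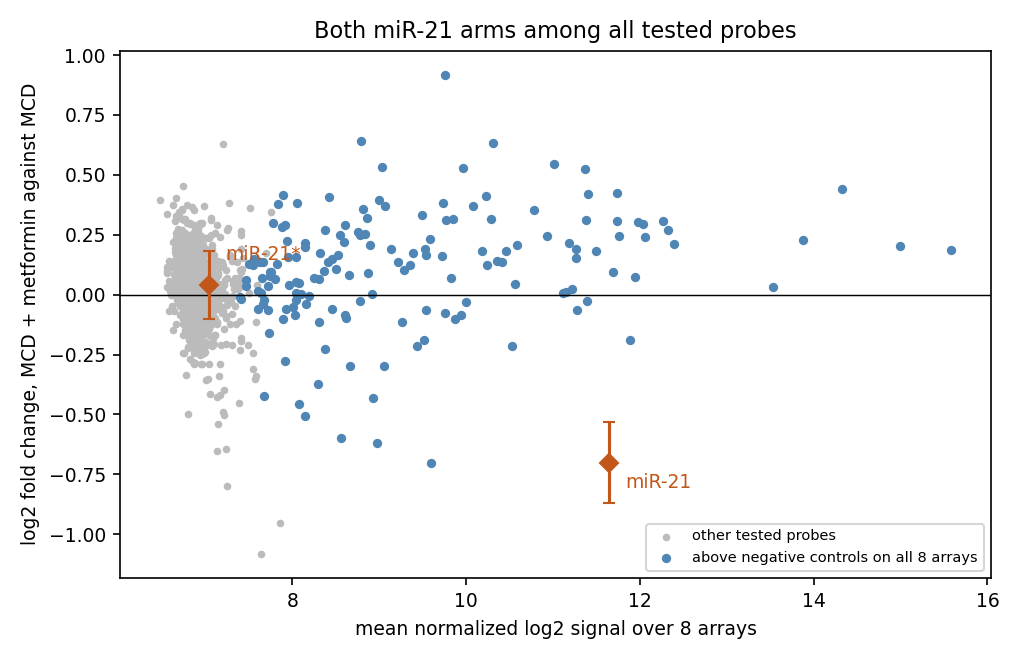
Log2 fold change (MCD + metformin against MCD) of each of the 1070 tested probes against its mean normalized log2 signal over the 8 arrays. Blue points are the 158 brighter probes, grey points the rest, and orange diamonds both miR-21 arms with the standard error as bars. miR-21 sits at -0.70 and miR-21* at 0.04.

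Whether the treated and untreated livers overlapped in miR-21 turned on MCD replicate 4 and MCD + metformin replicate 1. These differed by less than 0.01 on the log2 scale under the processing used, and in 7 of 12 ways of correcting the background and scaling the arrays all 4 treated livers fell below all 4 untreated livers (exact permutation p = 0.0286), whereas in the other 5 it was 3 of 4 (exact permutation p = 0.0571). The deposited table of processed values was among the 7. There miR-21 was 4295, 3729, 5732 and 2797 in MCD and 2438, 2037, 2402 and 2373 in MCD + metformin, a log2 difference of -0.80 (SE 0.25), with an adjusted p of 0.304 in limma over 620 probes. Groups without overlap also occurred at small differences under the processing used. Examples were miR-320* (log2 fold change -0.11, unadjusted p 0.289 in limma) and miR-292-5p (0.14, unadjusted p 0.172 in limma). The share of all tested probes without overlap is not given here, so a lack of overlap has no background rate to be read against.

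Without MCD replicate 4 the log2 fold change of miR-21 was -0.90 and its adjusted p in limma was 0.00479, and no other single liver changed the call. Leaving out each liver in turn gave log2 fold changes from -0.90 to -0.54, the smallest change being that without MCD replicate 3. The adjusted p was also under 0.05 in limma when the arrays were scaled on the probes above the negative controls (-0.82, adjusted p 0.00838) and on the spike control spots (-0.93, adjusted p 0.0193). In the fit scaled on the probes above the negative controls, limma gave miR-21 and miR-21* the same SE, 0.199. The p of that fit thus rested on a spread pooled over probes and not on that of miR-21 itself. With the scaling on the probes above the negative controls kept and the brighter probes alone tested, the adjusted p was 0.0399, whereas testing those probes under the scaling used here left -0.70 with an adjusted p of 0.239. Scaling on the probes above the negative controls and on the spike controls also moved the median of all probes, to -0.09 and -0.20. Relative to that median, miR-21 was -0.73 under every scaling that shifts a whole array, where it could not differ because all probes move alike. Under quantile normalization it was -0.90.

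**Figure D3:**
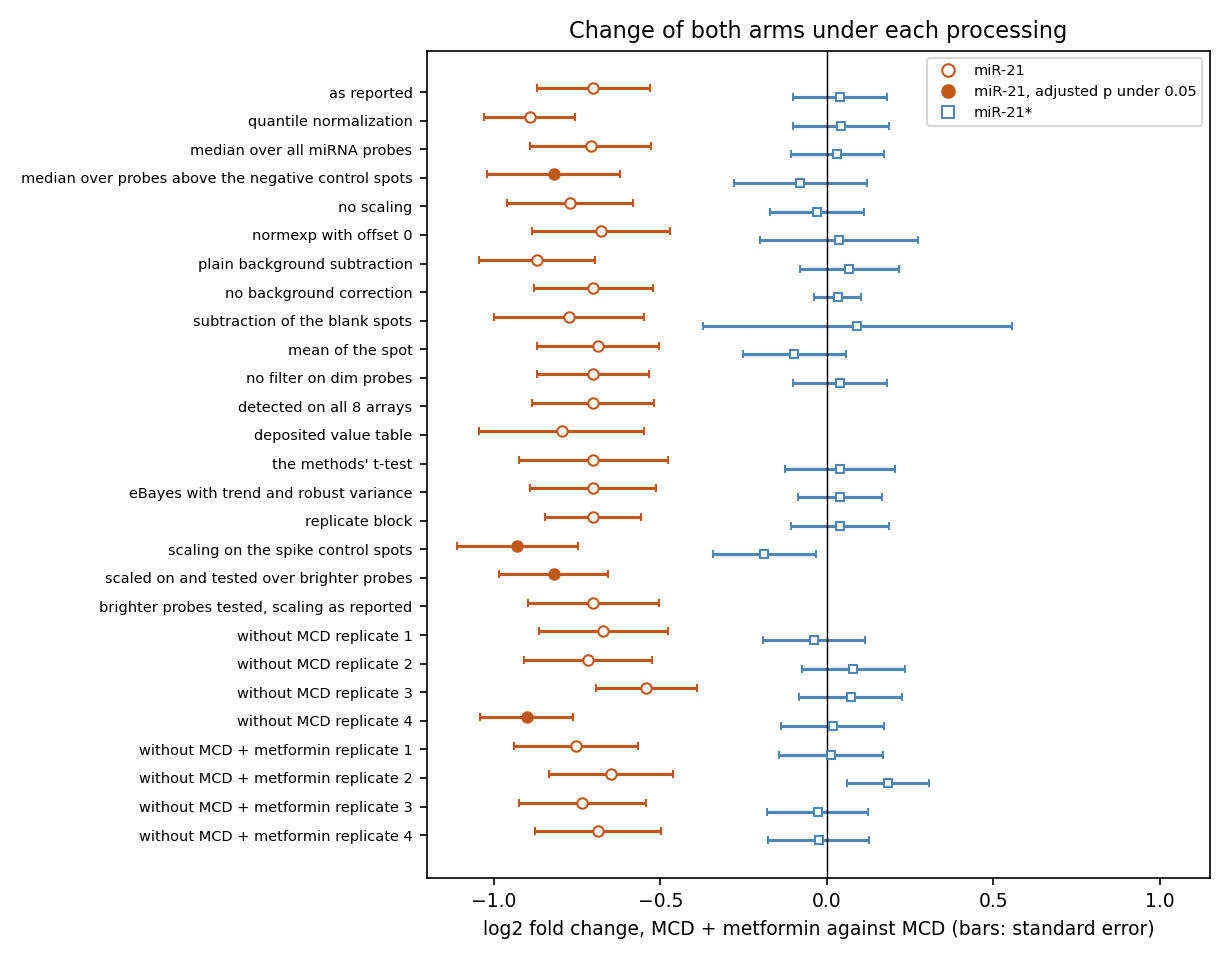
Log2 fold change (MCD + metformin against MCD) of miR-21 (orange circles) and miR-21* (blue squares) under each processing choice and without each liver in turn, with the standard error as bars. Filled circles mark an adjusted p under 0.05. miR-21 lies between -0.93 and -0.54 and miR-21* between -0.19 and 0.18.

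The star arm was dim. The signal of miR-21* was 256, 286, 283 and 272 in MCD replicates 1 to 4 and 288, 234, 279 and 295 in MCD + metformin replicates 1 to 4, with a mean of 274 ± 13.6 and 274 ± 27.5 (SD, n = 4 each). It was detected above the blank spots on 4 of 4 and 3 of 4 arrays, and lay above the negative controls on 0 of 4 and 2 of 4. At 0.787 to 1.02 times the negative control threshold, these signals were close to what the negative controls gave, and the SD over the pixels of the spot was 25.2 to 35.5% of its mean.

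The log2 fold change of miR-21* was 0.04 (SE 0.14, 95% confidence interval -0.26 to 0.34). Its adjusted p in limma was 0.972 and the exact permutation test gave p = 0.771. The groups overlapped, and the lowest liver of all, MCD + metformin replicate 2, was a treated one. The sign of this small difference changed with the scaling: it was -0.08 when scaled on the probes above the negative controls and -0.19 on the spike controls. In this fit the interval excludes a change in signal as large as that fitted for miR-21. With subtraction of the blank spots miR-21* was 0.09 (SE 0.46), too imprecise for such an exclusion. A probe this near its background also understates any change in the miRNA. In the deposited table miR-21* was 28.2, 57.4, 57.5 and 40.8 in MCD and 59.6, 63.5 and 70.3 in MCD + metformin replicates 1, 3 and 4. The entry of MCD + metformin replicate 2, the lowest treated liver, was empty there, so the listed values were not tested.

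Both arms come from the one hairpin, so the question of whether they changed unequally was put to the log2 value of miR-21 minus that of miR-21* on each array, in which a shift of the whole array cancels. It was 5.30, 4.81, 5.36 and 4.44 in MCD and 4.31, 4.51, 4.14 and 4.0 in MCD + metformin. MCD + metformin replicate 2, where miR-21* was lowest, was above MCD replicate 4, so the groups overlapped. The means were 4.98 (SD 0.43) and 4.24 (SD 0.22), a difference of -0.74 (SE 0.24) with an exact permutation p of 0.0571. Without MCD replicate 4 it was -0.92 with an exact permutation p of 0.0286, the smallest that design allows. As miR-21* was above the negative controls on 2 of 8 arrays, this difference mostly repeats the -0.70 of miR-21 and does not settle whether the arms changed unequally. Brightness differs between probes, so the value on one array is not a ratio of the arms.

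Across the 8 livers, with miR-21* above the negative controls on 2, Pearson's r between the arms was 0.08 (exact permutation p = 0.852) and Spearman's rho -0.10 (exact permutation p = 0.840). Without MCD replicates 1 and 3, the arrays farthest from the miR-21 median, r was 0.40. With most miR-21* values at the background, these say little about the arms. The brighter probes most like miR-21* were miR-1195 (r = 0.64), miR-31 (r = 0.60) and miR-200b (r = 0.59), with an adjusted exact permutation p of 0.993 for each.

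The pattern of miR-21 over the 8 livers was compared with each of the other 157 brighter probes. Of these, 67 had a positive and 90 a negative r, and 12 had an unadjusted exact permutation p under 0.05, 7 positive and 5 negative. After adjustment over these 157 probes the smallest permutation p was 0.542 for r and 0.350 for rho, so that none passed. The likeness is therefore a description of these arrays. All values on one array share its labelling, scaling and group, and part of each r was the difference between the groups.

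The probe most like miR-21 was miR-342-3p, found mostly in lymphocytes and other leukocytes, with r = 0.90 and rho = 0.69, and r = 0.85 without MCD replicates 1 and 3. Its signal was 379, 400, 425 and 345 in MCD and 320, 318, 294 and 321 in MCD + metformin, without overlap. Over the 4 livers of a group, r was 0.84 in MCD but -0.81 in MCD + metformin, where miR-21 varied little. Next came miR-34a, a p53 target, with r = 0.85 and rho = 0.93, and r = 0.72 without the same arrays. Its signal was 487, 453, 536 and 413 in MCD and 437, 320, 330 and 411 in MCD + metformin, and here MCD replicate 4 was the lowest untreated liver, as for miR-21.

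The other probes among the 8 most alike were miR-142-5p (r = 0.81), of blood cells, the joint probe of miR-199a-3p and miR-199b (r = 0.81) and miR-199b* (r = 0.81), both of stellate cells and fibroblasts, miR-223 (r = 0.73), of neutrophils and macrophages, miR-27a (r = 0.71) and miR-15a (r = 0.70). Several of these rested on the arrays at the top of the miR-21 range. Among the 4 treated livers r for miR-142-5p was -0.83, against 0.96 in MCD. Without MCD replicates 1 and 3, r was 0.33 for miR-142-5p, 0.28 for miR-27a and 0.22 for miR-15a, and 0.57 for the joint miR-199 probe, 0.58 for miR-199b* and 0.55 for miR-223. With each group's mean removed, 1 of these 8 was still among the 8 most alike, with quantile normalization 5 were, and with no scaling all 8. Other markers of the same cell types were less alike over the 8 livers. The other brighter probes of stellate cells and fibroblasts had r = 0.58 (miR-143), 0.56 (miR-199a-5p) and 0.31 (miR-145). Those of leukocytes had r = 0.62 (miR-146a) and -0.15 (miR-150).

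At the other end, miR-122 ran most against miR-21, with r = -0.79 and rho = -0.69, and -0.71 without MCD replicates 1 and 3. It was followed by miR-30b (r = -0.75), miR-1949 (r = -0.74) and miR-296-5p (r = -0.73). With the group means removed, r for miR-122 was -0.29, which is nearer to 0 than over all 8 livers. The log2 fold change of miR-122 was 0.44 (SE 0.11, adjusted p 0.195 in limma), with every treated liver above every untreated one.

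**Figure D4:**
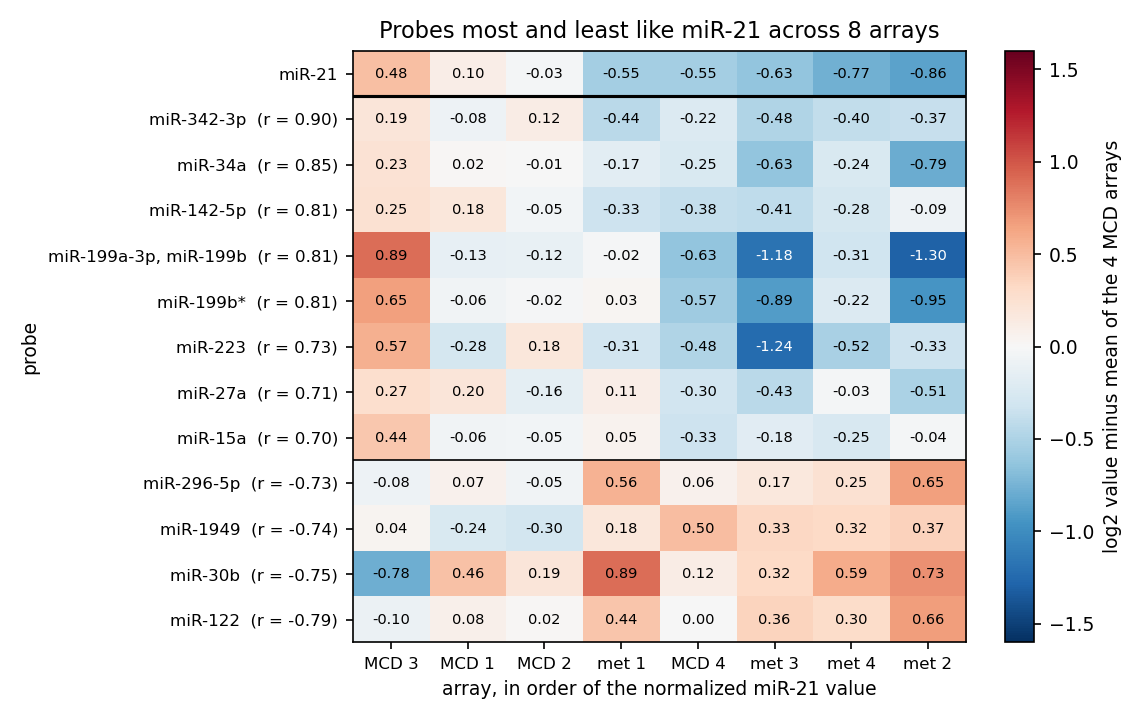
Normalized log2 value minus the mean of the 4 MCD arrays, for miR-21 (top row), the 8 brighter probes with the highest Pearson r to it and the 4 with the lowest, with the arrays ordered from the highest to the lowest miR-21 value. Red is above and blue below the MCD mean. MCD replicate 4 stands at -0.55 for miR-21 and at -0.63 for the joint miR-199a-3p and miR-199b probe, and at 0.00 for miR-122.

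miR-21 is made by several liver cell types, and marker lists of these types were read beside it. Over all 1070 probes 3.08% were lower and 6.36% higher at an unadjusted p under 0.05. Of the 158 brighter probes 6 were lower and 28 higher. These are the background for each count below. The 6 lower ones were miR-21, miR-342-3p, miR-34a, miR-223, the joint miR-199a-3p and miR-199b probe and miR-199b*. Apart from miR-21 these are list members counted below, so the 6 are no independent background for them. The lists were written with earlier results of these data known, so their counts only describe these arrays. Of 6 tested probes of stellate cells and fibroblasts, 2 (the joint miR-199a-3p and miR-199b probe and miR-199b*) were lower at an unadjusted p under 0.05 and none higher, with a median log2 fold change of -0.32 beside 0.03 over all probes. Their summed level, from normalized values on a linear scale with the offset taken off, was 2436 to 5598 in MCD and 2035 to 4269 in MCD + metformin, and MCD replicate 4, at 2436, was the lowest untreated liver, as it was for miR-21. Of 7 leukocyte probes 2, miR-223 and miR-342-3p, were lower and none higher, with a median of -0.12 and a summed level of 1120 to 1830 against 960.2 to 1264. MCD replicate 4, at 1120, was again the lowest untreated liver, as it also was on both fibrosis lists below. The part of either cell type in the miR-21 result was not tested.

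The biliary list had 1 of 5 probes lower (miR-141), none higher, a median of -0.43 and a summed level of 924.9 to 2751 in MCD and 553.6 to 1905 in MCD + metformin. MCD replicate 4 had the level of 924.9. The one lower probe, miR-141, was above the negative controls on 2 of 8 arrays. The brighter probes of this list, miR-200a and miR-200b, had an unadjusted p of 0.156 and 0.245 in limma. The hepatocyte list went the other way: 6 of 6 probes, all among the brighter probes, of which 28 of 158 were higher, were higher at an unadjusted p under 0.05, with a median of 0.40 and a summed level of 23600 to 25700 in MCD and 29470 to 38990 in MCD + metformin, and so were both endothelial probes of miR-126, with a median of 0.31. None of the 3 red blood cell probes passed in either direction, and their median was 0.12. Of the leukocyte markers, miR-155 was above the negative controls on 1 of 8 arrays, and of the red blood cell markers miR-144 on 0 of 8. With quantile normalization, with scaling on the probes above the negative controls and with no scaling, the medians of the 5 lists other than the red blood cell list kept their sign, but not their size: with quantile normalization the hepatocyte median was 0.16 and the endothelial one 0.16, and with scaling on the probes above the negative controls the leukocyte median was -0.23 and the endothelial one 0.19. Over all probes, the 68 higher at an unadjusted p under 0.05 in limma became 43, 8 and 24 under these scalings, in that order. With the spike controls 1 was higher, and the lists were not run with that scaling. The list counts are those of the scaling used here. In no list did a probe pass the adjusted p in limma, and the part of these cells in the miR-21 result was not tested.

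miR-21 is usually grouped with the miRNAs described as promoting fibrosis. Of 13 other tested probes on such a list, 3 were lower at an unadjusted p under 0.05 (miR-34a, the joint miR-199a-3p and miR-199b probe, and miR-199b*) and none higher, with a median log2 fold change of -0.11, where 3.08% of all probes were lower. With scaling on the probes above the negative controls this median was -0.22. Of 19 tested probes described as opposing fibrosis, 6 were higher and none lower, where 6.36% of all probes and 28 of the 158 brighter probes were higher. Of the 19, 15 were brighter probes, and the list's median of 0.13 stood beside 0.13 for the brighter probes at large. The 6 comprised miR-29b and miR-29c, which repress collagen genes, miR-335-5p, and the hepatocyte miRNAs miR-194, miR-122 and miR-101b. Of these, miR-335-5p was above the negative controls on 5 of 8 arrays. In summed level MCD replicate 4 was the lowest untreated liver on both fibrosis lists, at 4084 for promoting and 33110 for opposing. It was not the lowest on the hepatocyte (24330), endothelial (4103) or red blood cell (1854) list. Being the lowest was thus not particular to the stellate cell, leukocyte and biliary lists. The fibrosis lists share members with the cell type lists, the miR-199 probes being on both the fibrosis-promoting and the stellate cell list, and none of these probes passed the adjusted p in limma.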

How the data were processed

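Total liver RNA was hybridised to 8 one-colour Toray 3D-Gene mouse miRNA Oligo chips (version 17.0), 1 per liver, and read by the authors with a 3D-Gene Scanner 3000 and 3D-Gene extraction 1.2. Per the file headers the values are spot intensity (median, mean, local background), not normalized; the labels name the dye Hy5, the columns a single other channel. The table deposited by the authors holds processed intensity, each column a straight line of the scanner median with a median of 45 and 57 to 173 probes empty.

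Medians and local backgrounds went through normexp (offset 50), then log2, then removal of control and blank spots, and arrays were centred on the median of 451 probes that passed detection on every array. limma 3.58.1 (R 4.3.3), unpaired and two-sided, tested 1070 probes, those with detection on 4 or more arrays, with Benjamini-Hochberg adjustment; a call was an adjusted p under 0.05. The offset understates changes of dim probes. Single values had exact permutation tests, and correlations all 40320 pairings (scipy 1.17.1). The code was tested on simulated data. Alternatives covered scaling, background, the dim-probe filter, the methods' t-test, each liver left out and a replicate block; spike control scaling and 2 fits over the brighter probes were added after seeing the data.

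Named were both arms, the 8 brighter probes most and the 4 least like miR-21, the 3 most like miR-21*, fibrosis list members above the negative controls on all arrays (singly only where the unadjusted p passed), and marker list members where a count needed them. Named after their values were seen were miR-335-5p, miR-320*, miR-292-5p and the further brighter probes of the stellate cell, leukocyte and biliary lists. The members and lists were chosen with earlier results of these data known. The p-values for group differences rest on the spread between these livers. In limma that spread is moderated over all probes tested. For miR-21 the SE was 0.17 in limma and 0.22 in the methods' t-test (unadjusted p 0.0202), which uses the spread of miR-21 alone.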

Additional observations from a re-analysis of the deposited data

Results flagged for a closer look

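The normalized miR-21* value of MCD + metformin replicate 2 stood apart from the other 3 treated livers: its gap to the nearest of them was 0.845 of the range of the group. Its signal was 234, against 279 to 295 in the others, and it was the one array on which miR-21* was not above the blank spots. By chance about 1 in 20 groups is marked in this way, and 2 probes and their difference were examined in 2 groups. Without this liver the log2 fold change of miR-21* was 0.18. The miR-21 values of neither group were marked, MCD replicates 3 and 4 included.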

How the results depend on the processing

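The log2 fold change of miR-21 was negative in 26 of 26 alternatives, with an unadjusted p under 0.05 in each and an adjusted p from 0.00479 to 0.522 (limma and, for the highest, the methods' t-test, unadjusted p 0.0202). It passed the adjusted threshold in limma with scaling on probes above the negative controls (-0.82), on the spike controls (-0.93) and without MCD replicate 4. In the first of these fits both arms had the same SE, 0.199, so its p rested on a spread pooled over probes and not on that of miR-21 itself. miR-21 also passed with the brighter probes both scaled on and tested (-0.82, adjusted p 0.0399), which repeats the negative control scaling, but not with the same probes tested under the main scaling (-0.70, adjusted p 0.239). Leaving out one liver gave -0.90 to -0.54, with an adjusted p in limma of 0.00479 to 0.430. For miR-21* the value was negative in 7 of 22 alternatives: -0.079 with scaling on probes above the negative controls, -0.031 with no scaling, -0.10 with the mean of the spot, -0.19 with the spike controls, and without one liver it ranged from -0.04 to 0.18, negative without MCD replicate 1 (-0.037) and MCD + metformin replicates 3 (-0.03) and 4 (-0.02). miR-21* was not fitted where detection on all 8 arrays was required or in the deposited table, in which 1 of its 8 entries was empty. The difference between the arms was negative in 14 of 14 alternatives. Its exact permutation p was 0.0286 with quantile normalization (-0.93), plain background subtraction (-0.94) and no background correction (-0.73), up to 0.171 with subtraction of the blank spots, and leaving out one liver gave -0.92 to -0.61.

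The 33 probes lower at an unadjusted p under 0.05 became 50 with quantile normalization, 60 with no scaling, 15 among 451 probes detected on all 8 arrays and 257 with spike controls, with 28 to 45 when one liver was left out. The lower share of such calls was 32.7%, against 53.8% with quantile normalization, 83.3% with scaling on probes above the negative controls, 71.4% with no scaling and 99.6% with spike controls, and in limma 15 probes passed the adjusted p with spike controls, 10 with scaling on probes above the negative controls and 9 without MCD replicate 4. With scaling on probes above the negative controls, the medians of the red blood cell and fibrosis-opposing lists were -0.0020 and 0.0067. The cause of these changes was not tested. Replicate numbers were shared between the groups. The correlation of same-numbered deviations was -0.301 to 0.0311, which cannot settle whether the numbers paired the livers. With the replicate number as a block, miR-21 was -0.70 (adjusted p 0.314 in limma) and 25 probes were lower. miR-21* lay near its background, so a change in it could have been understated or missed.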
